A study of Mus musculus with 18 samples.

Results

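The comparison described here asks which effects of interleukin 6 (IL-6) on naive CD4 T cells depended on the transcription factor STAT3. For every gene, the change from medium to IL-6 in wild type (WT) cells was subtracted from the same change in STAT3-deficient cells, and the result is called the interaction. It rests on 12 of the 18 arrays of the series, 3 for each of 4 groups: WT cells in medium, WT cells with IL-6, STAT3-deficient cells in medium and STAT3-deficient cells with IL-6. All mice were C57BL/6J. Stat3 was deleted with the STAT3<tm1Dlv> allele and Cd4-Cre, which acts in developing T cells and spares most other cells, and the labels do not say whether WT mice carried the Cre. T cells that lacked CD44 and CD25 and carried CD62L were sorted from lymph nodes and spleen and cultured for 3 h, with IL-6 at 20 ng/ml where it was given. The series calls the 3 arrays of a group biological replicates, and no label says how many animals gave each one. The remaining 6 arrays, of both genotypes with interleukin 27 (IL-27) at 20 ng/ml, enter the estimate of the spread and 1 comparison between the cytokines.

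IL-6 binds its own receptor chain and then the shared chain gp130, encoded by Il6st, whose JAK kinases phosphorylate STAT3. Phosphorylated STAT dimers enter the nucleus and bind sites of the form TTCNNNGAA. STAT3 raises Socs3, whose product blocks gp130 and so ends the signal, and in T cells it serves the Th17 and follicular helper programs. Interferon-responsive genes encode antiviral proteins, guanylate-binding proteins and parts of the MHC class I pathway.

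Of 11971 genes tested, 369 (3.08%) had an interaction at an adjusted p under 0.05 (limma, Benjamini-Hochberg). The interaction was called, in this sense, above 0 for 219 (1.83%) and below 0 for 150 (1.25%). IL-6 itself raised 439 genes (3.67%) and lowered 557 (4.65%) in WT cells. In STAT3-deficient cells it raised 202 (1.69%) and lowered 19 (0.159%). These shares over all genes are the background for the counts of list members given below. Values throughout are log2 of the signal plus 32 after quantile normalisation, so that 1 unit is a doubling, and the constant shrinks changes of weakly expressed genes. Values given in threes are levels in the 3 arrays of a group, rises and falls are differences between group means, and an interaction is the difference of 2 such differences. Errors after ± are standard errors (SE) of the model. As deposited, the median signal of an array ran from 104.4 to 126.8 in WT and from 131.5 to 190.3 in STAT3-deficient groups, and the scale therefore mattered. With each array centred on its median in place of quantile normalisation, the median interaction over all genes was 0.205 in place of 0.0113, and 77.5% of the called genes lay above 0 in place of 59.3%.

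Stat3 checked the labels. Its log2 level was 11.54, 11.34 and 11.18 in WT cells in medium and 10.19, 10.36 and 10.18 in STAT3-deficient cells in medium. The groups did not overlap, and the difference was -1.11 ± 0.12. Of the other 3 probe sets, 1 was lower by a like amount (-0.92 ± 0.12) and 2 were not lower (0.80 ± 0.27 and 0.12 ± 0.20). Which of them read the deleted part of the transcript is not known here, and a remaining signal does not measure STAT3 protein. Of 15 listed T cell identity genes 11 passed the filter, Cd3e, Cd3d, Cd3g, Cd4 and Lat among them. So did 14 of 20 B cell and 17 of 20 myeloid markers, so passing the filter does not check the T cell label.

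Markers of other cells differed between the genotypes. Of 14 B cell markers, 11 were higher in STAT3-deficient cells in medium and none lower, and of 17 myeloid markers 9 were higher and 2 lower, against 13.8% and 12.9% of all genes. The summed B cell marker signal was 6557 to 6964 in WT cells in medium and 3850 to 4342 in WT cells with IL-6. It was 9508 to 13930 and 8897 to 14510 in the corresponding STAT3-deficient groups. Ighm, the heavy chain of IgM, made up most of the WT sum and was the only one of the 14 that fell with IL-6 in WT cells. The other 13 summed to 1386 to 1704 in WT medium and 1451 to 1533 with IL-6, and to 3882 to 6656 and 3545 to 7780 without STAT3. The summed myeloid signal was 10220 to 11510 and 11690 to 12550 in WT cells, and 13550 to 23470 and 17430 to 22770 in STAT3-deficient cells. In total RNA, a change in the share of a cell type and a change in RNA per cell cannot be told apart. With the mean of these markers as a covariate, 402 genes had an interaction, 359 of them among the 369. A marker difference between the genotypes that is alike in medium and with IL-6 cancels in the interaction. The covariate therefore cannot show whether such other cells themselves respond to IL-6, which was not tested.

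The called genes fell into groups by the effect of IL-6 in each genotype. In 146 genes a rise seen in WT cells was lost or reduced without STAT3, in 159 a fall was lost or reduced, and in 55 a rise was gained or increased. Only 3 genes moved significantly in opposite directions in the 2 genotypes, and 6 were called in neither. These groups describe the same arrays that gave the interaction and are not a further test. The median effect of IL-6 in the first group was 1.07 in WT and 0.0036 in STAT3-deficient cells. In the second it was -0.91 and -0.0564, and in the third 0.43 and 1.56. Centring on array medians left the first group at 71 genes, the second at 180 and the third at 52.

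**Figure D1:**
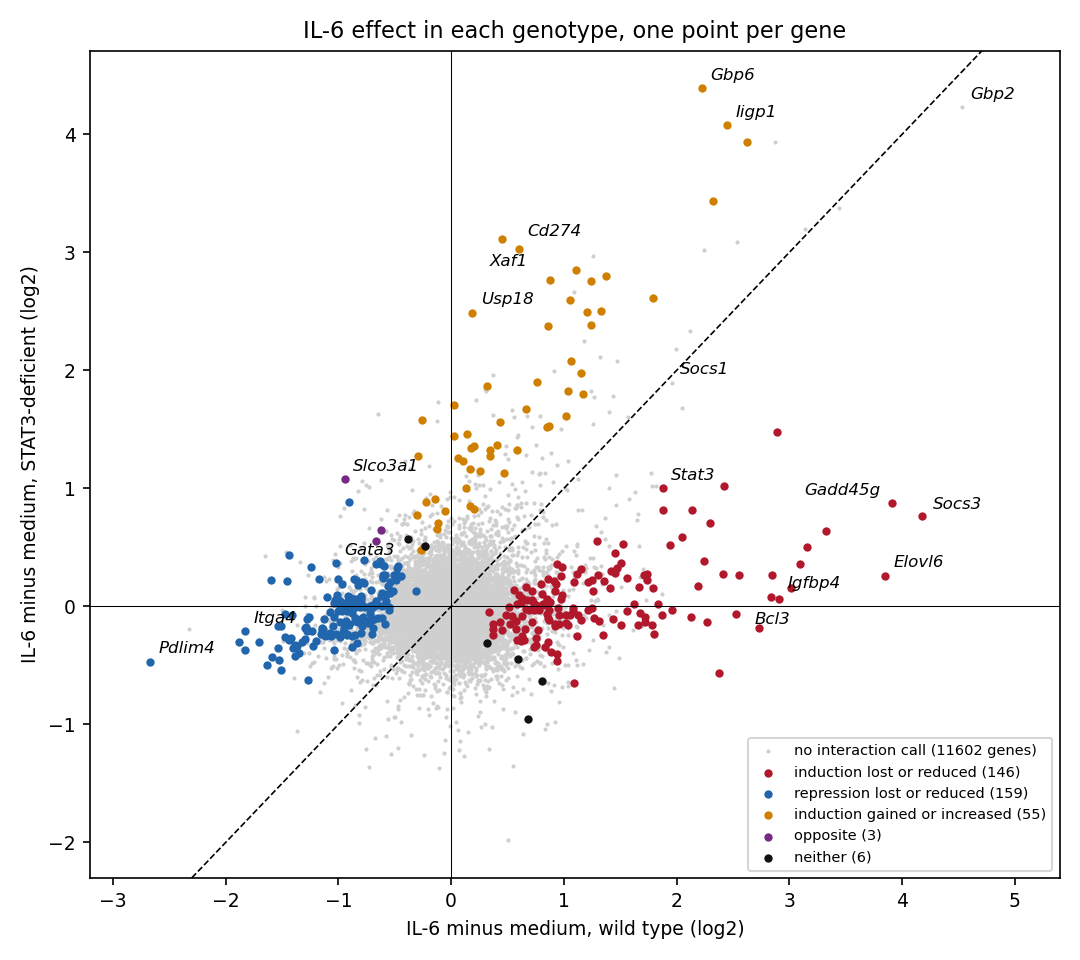
The effect of IL-6 against medium in WT cells (x axis, log2) is plotted against that in STAT3-deficient cells (y axis, log2), 1 point per gene, with the genes that have an interaction coloured by group and equal effects on the dashed line. The 146 genes with a lost or reduced rise lie along the right arm of the horizontal axis, the 159 with a lost or reduced fall along its left arm, and the 55 with a gained or increased rise above the dashed line.

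Feedback inhibitors and transcription factors are described first among the lost rises. Socs3, the feedback inhibitor of gp130, was at 9.15, 8.98 and 9.27 in WT cells in medium and at 13.29, 13.45 and 13.20 with IL-6. In STAT3-deficient cells it was at 8.82, 8.73 and 8.79 in medium and at 9.27, 9.93 and 9.45 with IL-6. The rise was 18.2-fold with STAT3 and 1.70-fold without it, so that a small rise, itself past the test, was left. The interaction was -3.41 ± 0.21 (limma, adjusted p = 1.36e-08), and the other 2 probe sets of Socs3 gave -3.39 and -3.99.

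Bcl3, an atypical IkB protein that works with NF-kB p50 and p52 in the nucleus, was at 9.60, 8.93 and 8.99 in WT medium and at 12.10, 11.95 and 11.99 with IL-6. Without STAT3 it was at 9.96, 9.49 and 9.64 in medium and at 9.91, 9.81 and 9.60 with IL-6. The STAT3-deficient groups overlapped, and the interaction was -2.76 ± 0.21 (limma, adjusted p = 2.76e-07). Batf, an AP-1 factor required for Th17 cells, went from 9.98, 10.15 and 10.17 to 11.60, 11.90 and 11.96 in WT cells. With STAT3 absent its values were 10.44, 10.09 and 10.13 in medium and 10.10, 10.12 and 10.16 with IL-6, and the interaction was -1.81 ± 0.20. Bcl6, the repressor that directs follicular helper cells, went from 9.44, 9.34 and 9.34 to 11.07, 11.05 and 11.36 in WT cells. Its STAT3-deficient values overlapped, at 9.25, 9.66 and 9.96 against 9.47, 9.93 and 9.92, and the interaction was -1.64 ± 0.23 (limma, adjusted p = 0.000202). A second Bcl6 probe set gave a smaller interaction of -0.79 ± 0.21.

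The promoters of Socs3 and Bcl6 are shown because both genes lost their rise and both windows hold the STAT form TTCNNNGAA. Each window runs from 250 bases before to 50 bases after a RefSeq start site in the mouse assembly GRCm38.p6, both lie on the minus strand and are printed 5′ to 3′, and capitals mark each match. The Socs3 window is chr11:117969317-117969616 and holds 1 match. The Bcl6 window is chr16:23981234-23981533 and holds 3, while a second Bcl6 start site has a window with 1.
Socs3: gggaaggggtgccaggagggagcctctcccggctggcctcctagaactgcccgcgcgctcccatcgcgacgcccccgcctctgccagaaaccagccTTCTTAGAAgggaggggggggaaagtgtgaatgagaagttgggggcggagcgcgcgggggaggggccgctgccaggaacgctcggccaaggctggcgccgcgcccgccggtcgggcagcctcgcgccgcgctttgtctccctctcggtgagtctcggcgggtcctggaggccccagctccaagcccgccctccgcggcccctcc
Bcl6: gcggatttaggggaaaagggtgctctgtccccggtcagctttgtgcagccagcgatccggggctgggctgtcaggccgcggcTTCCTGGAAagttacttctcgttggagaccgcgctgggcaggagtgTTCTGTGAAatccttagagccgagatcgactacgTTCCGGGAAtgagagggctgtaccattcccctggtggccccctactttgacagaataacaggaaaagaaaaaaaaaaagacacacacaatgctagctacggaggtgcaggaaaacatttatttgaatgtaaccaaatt
The form was searched on both strands, as was GAAANNGAAA, a form of the interferon-stimulated response element. TTCNNNGAA was in 20 of 161 promoters (12.4%) of the genes with a lost or reduced rise, in 14 of 157 (8.92%) of those with a lost or reduced fall and in 858 of 12308 (6.97%) of all genes tested. GAAANNGAAA was in 6 (3.73%), 5 (3.18%) and 373 (3.03%) of them. The promoters matched 120 of the 146 and 112 of the 159 genes by symbol. The Bcl3 window holds neither form. A match is a string of letters and was not tested for binding.

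Reported STAT3 targets were counted as a list of 36 measured genes, taken from the literature with earlier results of these data known. IL-6 raised 19 of them in WT cells and 4 in STAT3-deficient cells. The interaction was called below 0 for 13 and above 0 for 1, against 1.25% and 1.83% of all genes. Over all 36, called or not, its median was -0.56 against 0.0113 over all genes. The count of 13 was 7 when arrays were centred on their medians. Besides those described, the 13 included Sbno2 (-2.14 ± 0.19), Il21 (-1.74 ± 0.41), Junb (-1.25 ± 0.18), Hif1a (-1.03 ± 0.22), Il6st (-0.90 ± 0.16), Pim1 (-0.81 ± 0.17) and Mcl1 (-0.71 ± 0.19). Sbno2, a corepressor, had a further probe set that gave 0.25 ± 0.27. The only listed target called above 0 was Bcl2, the survival gene, at 0.94 ± 0.23, which fell in WT cells by 0.59 and did not change significantly without STAT3. The call of Bcl2 was lost under 9 of 27 alternatives (limma, adjusted p up to 0.0821).

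Il21, the cytokine of follicular helper and Th17 cells, was weakly expressed. It was at 6.47, 6.98 and 6.82 in WT medium, at 7.0, 8.47 and 8.07 with IL-6, and without STAT3 at 7.51, 7.25 and 7.41 in medium and at 6.58, 6.70 and 6.93 with IL-6. Its call was lost under 7 of 27 alternatives (limma, adjusted p up to 0.0781). Under median centring the calls of Hif1a, Il6st, Pim1 and Mcl1 were lost, with adjusted p (limma) of 0.245, 0.171, 0.341 and 0.25. It was the only one of the 27 alternatives that lost Hif1a, whereas Il6st, Pim1 and Mcl1 were lost under 2, 3 and 13. Not every listed gene was called. Pim2, a survival kinase, rose 2.05 in WT and 1.69 in STAT3-deficient cells, and the difference of -0.37 had a 95% interval from -0.73 to 0.0025.

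Stat3 itself is on the list. With IL-6 it reached 13.18, 13.18 and 13.34 in WT cells and 11.32, 11.13 and 11.29 in STAT3-deficient cells, so that it rose in both, by 1.88 and 1.00. The other Stat3 probe sets changed by 1.96 and 1.16, by 1.25 and 0.85, and by 0.55 and -0.28. The rise without STAT3 was thus not seen in every probe set. All 4 Stat3 probe sets had an interaction below 0, at -0.87, -0.79, -0.83 and -0.40, and the call of the probe set read for the gene was lost under median centring (limma, adjusted p = 0.233). Among 13 receptor chains, JAKs and STATs, the interaction was called below 0 for Jak3, Il6st and Stat3 and above 0 for Jak1 and Stat2. Jak3, the kinase of the common gamma chain, rose 1.5 in WT cells and had a change of -0.16 without STAT3, with an interaction of -1.66 ± 0.32. Il6st rose 0.87 in WT cells and had a change of -0.03 without STAT3. Stat2, part of the interferon factor ISGF3, rose 1.06 in WT and 2.08 in STAT3-deficient cells, a difference of 1.02 ± 0.25 that was lost under 9 of 27 alternatives (limma, adjusted p up to 0.187).

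The 17 negative regulators of cytokine signalling behaved unequally. Socs3 and Ptpn1, the phosphatase PTP1B, were called below 0, Ptpn1 at -1.12 ± 0.12, and Usp18, which blocks the interferon receptor, was called above 0. Socs1, another feedback inhibitor of JAK kinases, rose in both genotypes. It was at 7.30, 7.15 and 7.09 in WT medium, 9.05, 9.11 and 9.26 with IL-6, and 7.06, 7.74 and 7.46 against 9.70, 8.90 and 9.35 without STAT3. The interaction of -0.06 ± 0.29 had a 95% interval from -0.67 to 0.54, which leaves room for a difference in either direction. Cish rose 1.23 in WT cells, and its interaction of -0.82 ± 0.23 did not pass the test (limma, adjusted p = 0.0686). It gained a call under 6 of 27 alternatives (limma, adjusted p down to 0.0038).

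Metabolic and growth genes had some of the most STAT3-dependent rises. Elovl6, which lengthens fatty acids, had the lowest interaction of all genes. Its values were 8.75, 8.65 and 8.83 in WT medium, 12.48, 12.67 and 12.64 with IL-6, 7.96, 8.09 and 8.40 in STAT3-deficient medium and 8.40, 8.38 and 8.46 with IL-6. The rise was 14.4-fold with STAT3 and 1.2-fold, not past the test, without it, and the interaction was -3.59 ± 0.18 (limma, adjusted p = 8.27e-10). The other 21 measured genes of fatty acid and sterol synthesis did not follow: only Fasn, the fatty acid synthase, was also called, at -1.04 ± 0.27, and it was lost under 13 of 27 alternatives (limma, adjusted p up to 0.239).

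Igfbp4, a binding protein of insulin-like growth factors that marks naive T cells, was at 10.75, 10.52 and 10.65 in WT medium and 13.73, 13.51 and 13.43 with IL-6. In STAT3-deficient cells it was at 11.58, 11.30 and 11.43 in medium and 11.64, 11.42 and 11.45 with IL-6. It was already higher by 0.80 without STAT3 in medium, did not rise further, and had an interaction of -2.85 ± 0.15 (limma, adjusted p = 1.26e-09). Rragd, a Rag GTPase of amino acid sensing, rose 3.02 in WT cells and had a change of 0.15 without STAT3. Its interaction was -2.86 ± 0.37. Weaker probe sets of Rragd, above the array median on 2 and 3 arrays, gave -1.12 ± 0.61 and -0.04 ± 0.32. With its kept probe sets averaged the interaction was -1.45 and was still called (limma, adjusted p = 0.00656).

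Gadd45g, a stress and growth arrest gene, varied among STAT3-deficient arrays. It was at 7.92, 8.48 and 7.90 in WT medium and 12, 12.08 and 11.95 with IL-6, then at 6.24, 7.46 and 8.48 and at 7.83, 7.96 and 9.03 without STAT3. The STAT3-deficient groups overlapped while the WT groups lay far apart, and the interaction was -3.03 ± 0.59 (limma, adjusted p = 0.00472). Other large lost rises were those of Myo6, an unconventional myosin (-2.74 ± 0.41), Gzma, granzyme A (-2.69 ± 0.47), Samsn1, an adaptor (-2.59 ± 0.42), and Map3k8, a kinase upstream of ERK (-2.29 ± 0.34). Plscr1 was the only one of 51 antiviral genes called below 0, at -2.65 ± 0.48. It was near the lower end of the scale in WT medium, at 5.29, 5.39 and 5.47, and at 8.49, 8.43 and 8.70 with IL-6. Its probe set exceeded the array median on 3 arrays, those of WT cells with IL-6. It thus passed the filter only through the group where it was high, and it was tested in 24 of 27 alternatives.

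Slco4a1, an organic anion transporter, reached -2.94 ± 0.64, with a WT medium value of 5.27 beside 7.42 and 7.12. A second probe set gave -0.78 ± 0.47. Without the STAT3-deficient arrays numbered 3 the call of Slco4a1 was lost (limma, adjusted p = 0.0581). Serpinb1a, a protease inhibitor at -2.91 ± 0.59, was near the lower end of the scale in WT medium, at 5.12, 5.25 and 5.19. Without the filter on dim probe sets another probe set, above the array median on 0 arrays, was read. It gave an interaction of -0.75 (limma, adjusted p = 0.633), and the call was lost. The call of Serpinb1a was also lost without the STAT3-deficient arrays numbered 3.

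**Figure D2:**
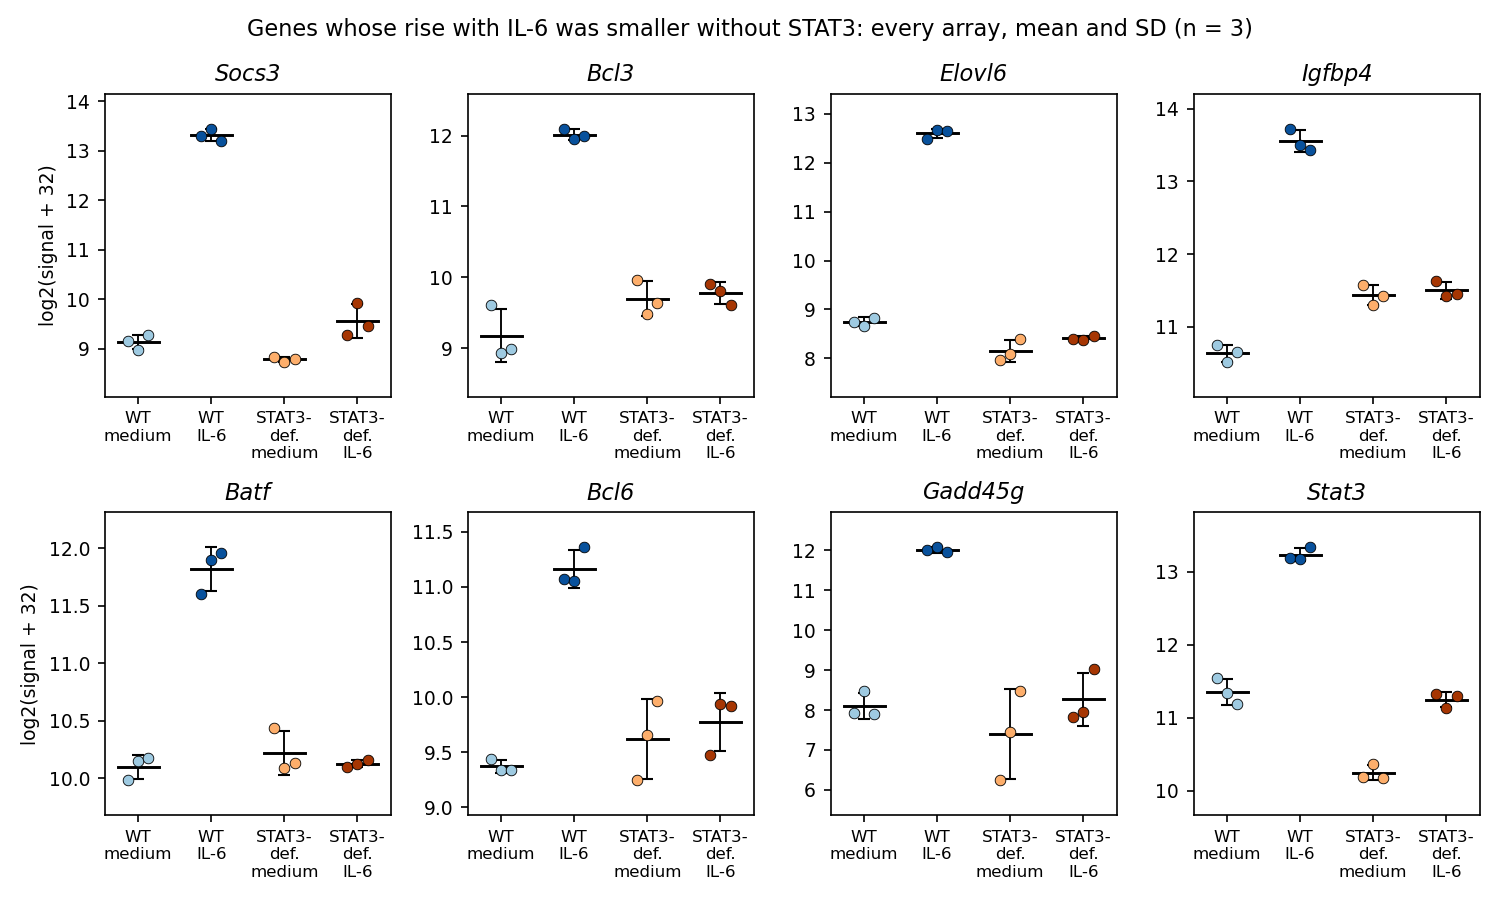
Log2(signal + 32) of 8 genes in each array of the 4 groups (y axis; each panel has its own scale that does not start at 0), with a line at the group mean and a bar of 1 SD (n = 3 arrays); STAT3-def. stands for STAT3-deficient. In Socs3, Bcl3, Elovl6, Igfbp4, Batf, Bcl6 and Gadd45g the WT arrays with IL-6 lie above all other arrays, whereas Stat3 rises in both genotypes.

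Few genes of the T helper lists were called. Over all genes, 3.67% rose in WT cells and 1.69% without STAT3, and the interaction was called above 0 for 1.83% and below 0 for 1.25%. In lists of this size, a count of none without STAT3 is near its share over all genes. Of 12 Th17 genes 5 rose in WT cells and none without STAT3, and 3 (Batf, Il21 and Hif1a) had an interaction that was called, all below 0. Of 18 follicular helper genes 6 rose in WT cells and none without STAT3, and 3 (Il21, Bcl6 and Il6st) were called below 0. Of 14 Th1 genes Ccl5 and Ifngr2 were called above 0 and none below, and of 5 Th2 genes Gata3 was called above 0 and Il4ra below. A second Ifngr2 probe set gave 0.08 ± 0.27, and the call of Ifngr2 was lost when its probe sets were averaged (limma, adjusted p = 0.1485). The call of Il4ra was lost under 3 of 27 alternatives (limma, adjusted p up to 0.532). Ahr, Icos and Irf4 gave -0.78 ± 0.36, -0.62 ± 0.20 and -0.40 ± 0.64 and were not called. Further Icos probe sets gave -0.86 ± 0.17 and -1.15 ± 0.25, and Icos gained a call under 4 of 27 alternatives (limma, adjusted p down to 0.00877). Maf, at 0.23 ± 0.43, was not called either. Of 33 chemokine and cytokine receptors, 3 were called above 0 and 4 below. Il17ra, the receptor of IL-17, and Il21r were among those below 0, at -1.19 ± 0.17 and -0.92 ± 0.18. Both calls were lost under median centring (limma, adjusted p = 0.0891 and 0.145).

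Of the growth and survival regulators, Cdkn2d, an inhibitor of CDK4 and CDK6, was called below 0 (-1.85 ± 0.25), as was Mcm4 of the replication helicase (-1.27 ± 0.14). Ccnd2, cyclin D2, was called above 0: it was at 11.84, 11.94 and 11.96 in WT medium, 11.78, 12.10 and 11.95 with IL-6, 11.85, 11.80 and 11.42 in STAT3-deficient medium and 13.51, 13.07 and 12.82 with IL-6. The rise was called without STAT3 and not in WT cells, with an interaction of 1.42 ± 0.23 (limma, adjusted p = 0.00132). The death receptor Fas was at -1.46 ± 0.38, and its call was lost under 14 of 27 alternatives (limma, adjusted p up to 0.121). Tnfsf8, the CD30 ligand, was at -1.32 ± 0.33, Zfp36, an mRNA decay factor, at -1.60 ± 0.38 and the AP-1 gene Jund at -0.80 ± 0.13. The calls of Tnfsf8, Zfp36 and Jund were lost under 11, 7 and 2 of 27 alternatives (limma, adjusted p up to 0.141, 0.0726 and 0.237).

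Interferon-responsive genes made up much of the opposite group. Of the 55 genes with a gained or increased rise, 31 belong to the lists of antiviral genes, interferon-inducible GTPases and MHC class I genes, which hold 79 of the 11971 genes tested. IL-6 raised 27 of the 55 in WT cells as well, so for these the response became larger. Among 51 antiviral genes, 29 rose and 1 fell in WT cells and 43 rose without STAT3. The interaction was called above 0 for 18 and below 0 for 1, against 1.83% and 1.25% of all genes. Called or not, it lay above 0 in 46 of the 51, with a median of 0.795 against 0.0113 over all genes. The count of 18 ran from 14 to 25 over the alternatives other than the 2-fold minimum.

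All 10 interferon-inducible GTPases rose in both genotypes, with a median of 1.80 in WT and 3.02 in STAT3-deficient cells. These proteins attack the vacuoles of intracellular microbes. The interaction was called above 0 for 8 of the 10, in each alternative other than the 2-fold minimum. In medium, 6 of the 10 were already higher without STAT3 and none was lower, against 13.8% and 12.9% of all genes. Gbp6 was at 8.98, 8.69 and 8.61 in WT medium, 11.03, 10.84 and 11.07 with IL-6, 9.37, 9.64 and 9.76 in STAT3-deficient medium and 14.14, 13.80 and 14 with IL-6. The groups did not overlap anywhere, and a rise of 4.67-fold in WT cells became one of 21.0-fold. The interaction was 2.17 ± 0.17 (limma, adjusted p = 4.19e-07).

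Irgm2, an immunity-related GTPase, went from 10.22, 10.20 and 10.31 to 11.23, 11.07 and 11.06 in WT cells, and from 10.28, 10.65 and 9.69 to 13.18, 12.97 and 12.76 in STAT3-deficient cells. The starting levels overlapped, and the interaction was 1.89 ± 0.23. Igtp went from 12.40, 12.51 and 12.48 to 13.69, 13.78 and 13.64, and from 12.69, 13.21 and 12.64 to 15.67, 15.53 and 15.61, with an interaction of 1.52 ± 0.16. Gbp8, Iigp1, Irgm1 and Gbp7 followed with 1.74 ± 0.14, 1.63 ± 0.21, 1.43 ± 0.25 and 1.11, and Ifi47 with 0.59.

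The remaining GTPases of the list were not called. Gbp2 rose 4.53 in WT and 4.23 in STAT3-deficient cells. It went from 10.79, 10.62 and 10.36 to 15.26, 15.13 and 14.98 in WT cells and from 10.53, 11.58 and 10.79 to 15.23, 15.09 and 15.27 without STAT3. Its interaction of -0.30 ± 0.25 had a 95% interval from -0.83 to 0.22. The arrays with IL-6 overlapped between the genotypes. Gbp3 rose 3.14 and 3.20, with an interaction of 0.06.

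The windows of Igtp and Irgm2 are shown because these neighbouring genes of the plus strand of chromosome 11 hold both forms side by side. They lie at chr11:58199306-58199605 and chr11:58214727-58215026 of GRCm38.p6, from RefSeq, with the TTCNNNGAA match first and GAAANNGAAA 2 bases after it, both in capitals.
Igtp: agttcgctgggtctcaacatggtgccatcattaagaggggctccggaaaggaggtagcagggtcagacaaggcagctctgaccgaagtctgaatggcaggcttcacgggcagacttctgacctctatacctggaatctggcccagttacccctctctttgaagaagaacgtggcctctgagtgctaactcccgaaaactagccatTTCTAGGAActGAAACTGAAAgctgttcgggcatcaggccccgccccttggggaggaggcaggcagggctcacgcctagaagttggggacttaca
Irgm2: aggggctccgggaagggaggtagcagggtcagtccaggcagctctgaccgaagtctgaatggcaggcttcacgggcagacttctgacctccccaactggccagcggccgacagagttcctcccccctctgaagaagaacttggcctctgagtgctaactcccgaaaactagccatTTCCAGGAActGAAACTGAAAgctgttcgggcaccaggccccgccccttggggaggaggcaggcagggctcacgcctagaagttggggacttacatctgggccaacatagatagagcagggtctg
Among the 51 promoters matched to 41 of the 55 genes, 12 (23.5%) held GAAANNGAAA and 10 (19.6%) held TTCNNNGAA, against 3.03% and 6.97% for all genes tested. A further window, that of Ifit3 at chr19:34583279-34583578 on the plus strand, is added since it holds GAAANNGAAA 2 times, both as matches of the opposite strand, and no TTCNNNGAA.
Ifit3: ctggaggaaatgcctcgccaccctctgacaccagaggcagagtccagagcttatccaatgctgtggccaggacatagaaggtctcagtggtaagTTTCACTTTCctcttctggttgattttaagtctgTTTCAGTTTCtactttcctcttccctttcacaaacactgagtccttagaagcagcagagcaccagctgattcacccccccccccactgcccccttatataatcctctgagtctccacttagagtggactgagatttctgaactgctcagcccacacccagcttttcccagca
Igtp and Irgm2 are related neighbours, so their windows are not independent examples.

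Antiviral effectors and interferon regulatory factors come next. Usp18, the protease that removes ISG15, was at 8.60, 8.73 and 8.39 in WT medium, 9.38, 8.43 and 8.48 with IL-6, 8.61, 9.28 and 8.33 in STAT3-deficient medium and 11.57, 11.24 and 10.88 with IL-6. WT groups overlapped, the STAT3-deficient groups did not, and the interaction was 2.30 ± 0.38 (limma, adjusted p = 0.00122). Ifit1bl1 and Ifit3, which restrain viral RNA, had 1.84 ± 0.19 and 1.54 ± 0.32. Ifit3 was already higher by 1.31 in STAT3-deficient medium. Zbp1, a sensor of Z-form nucleic acid, rose 2.62 and 3.94, and its interaction of 1.32 ± 0.29 was lost under 3 of 27 alternatives (limma, adjusted p up to 0.116).

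Irf7 rose 1.21 in WT and 2.50 in STAT3-deficient cells (interaction 1.29 ± 0.21), and Irf1 rose 1.04 and 1.83 (0.79 ± 0.13). Both encode interferon regulatory factors. Irf9 rose 1.4 and 1.65, and its difference of 0.24 had a 95% interval from -0.024 to 0.51, so it was not called. Irf8 gave 0.28 ± 0.25 and was not called.

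Xaf1, an interferon-responsive cell death gene, had the highest value, 2.66 ± 0.21, but it is unsettled. Its probe set was at 10.36, 10.15 and 10.36 in STAT3-deficient medium against 7.31, 6.86 and 6.78 in WT medium, a difference of 3.31. A second probe set gave a genotype difference of -1.98 in medium and an interaction of -0.21 ± 0.25. Without the STAT3-deficient arrays numbered 3 this second probe set had the higher mean and was read, which gave -0.14 (limma, adjusted p = 0.854).

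The MHC class I pathway rose further without STAT3 in its peptide-processing genes. Of 18 measured members, 7 rose in WT cells, 12 rose without STAT3, and 6 had an interaction called above 0 and none below. The corresponding shares over all genes were 3.67%, 1.69%, 1.83% and 1.25%. Psmb9, a subunit of the immunoproteasome, was at 12.20, 12.37 and 11.92 in WT medium, 12.61, 12.54 and 12.63 with IL-6, 12.04, 11.97 and 11.89 in STAT3-deficient medium and 13.91, 13.27 and 13.41 with IL-6. The WT groups lay close together, and the interaction was 1.13 ± 0.22 (limma, adjusted p = 0.00505). The peptide transporter genes Tap1 and Tap2 had 1.12 ± 0.27 and 0.93 ± 0.14, and the peptide editor Tapbpl had 1.00 ± 0.21. Nlrc5, the transactivator of the pathway, rose 1.15 and 1.98, an interaction of 0.83 ± 0.16. The heavy chain genes H2-K1 and H2-D1 and B2m gave 0.14, 0.03 and 0.08 and were not called. The call of Tap1 was lost under 7 of 27 alternatives (limma, adjusted p up to 0.0761).

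Cd274 encodes PD-L1, the inhibitory ligand named in the title of the series. It was at 8.60, 8.22 and 8.05 in WT medium and 8.85, 9.06 and 8.77 with IL-6, a small rise of 0.60 past the test. In STAT3-deficient cells it was at 8.26, 8.81 and 8.77 in medium and 11.96, 11.48 and 11.50 with IL-6. The medium groups overlapped, and a rise of 1.52-fold in WT cells compares with one of 8.17-fold without STAT3. The interaction was 2.43 ± 0.25 (limma, adjusted p = 7.67e-06), and it was called under all 27 alternatives. The gene was read from its only probe set.

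**Figure D3:**
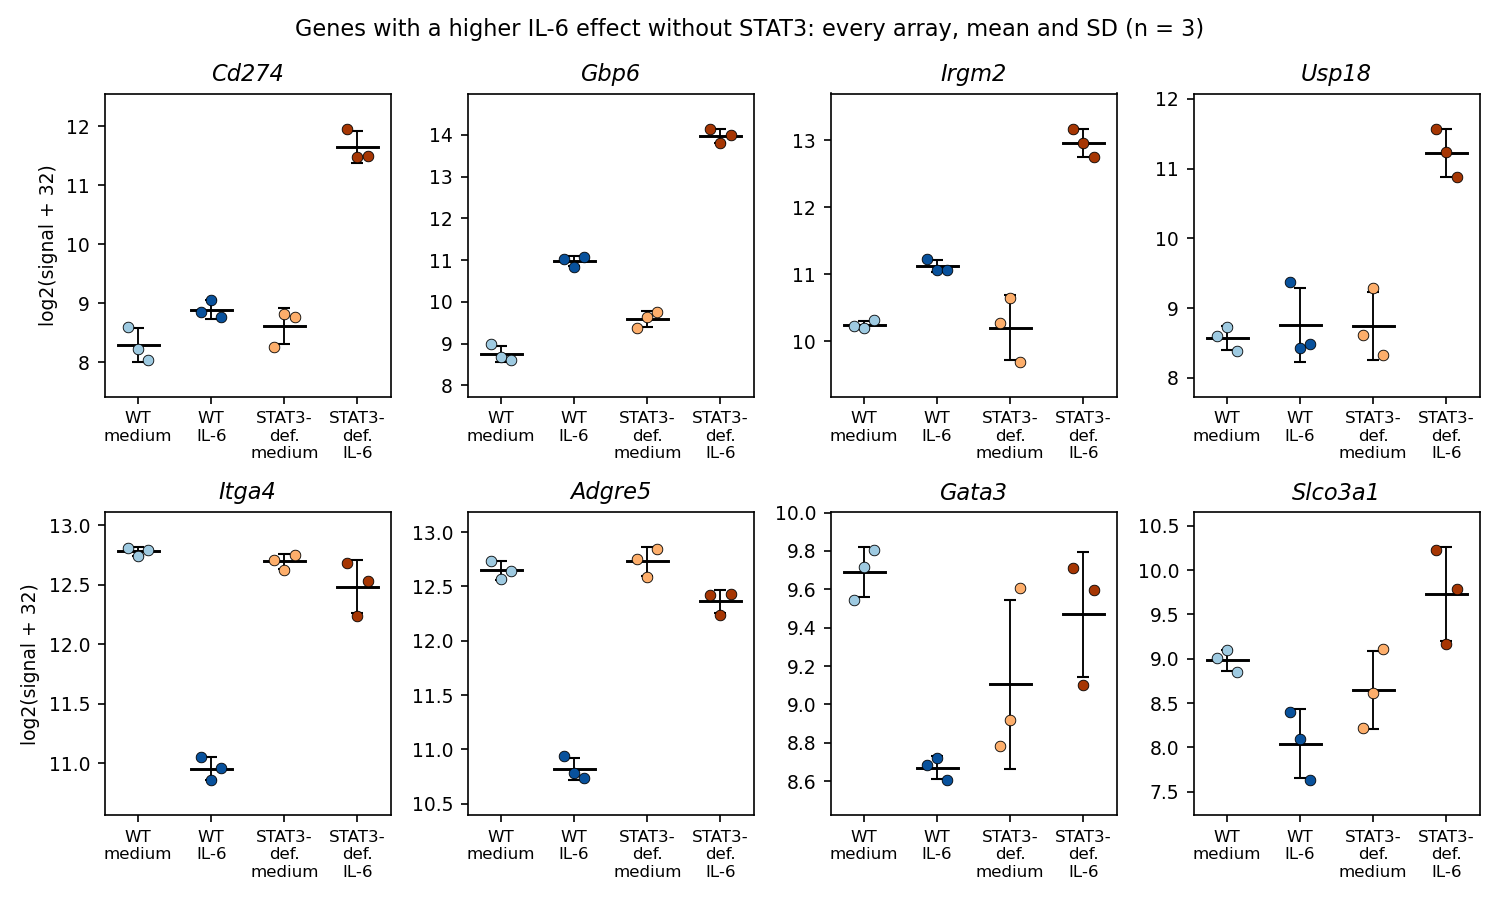
Log2(signal + 32) of 8 genes with an interaction above 0 in each array of the 4 groups (y axis; each panel has its own scale that does not start at 0), with a line at the group mean and a bar of 1 SD (n = 3 arrays); STAT3-def. stands for STAT3-deficient. Cd274, Gbp6, Irgm2 and Usp18 are highest in STAT3-deficient cells with IL-6, whereas Itga4, Adgre5 and Gata3 are lowest in WT cells with IL-6 and Slco3a1 falls in WT and rises in STAT3-deficient cells.

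The 159 genes with a lost or reduced fall included surface receptors of T cells. Itga4, the alpha chain of a homing integrin, was at 12.81, 12.74 and 12.79 in WT medium, 11.05, 10.85 and 10.95 with IL-6, 12.71, 12.62 and 12.75 in STAT3-deficient medium and 12.68, 12.24 and 12.53 with IL-6. The WT arrays with IL-6 lay below all others, and the interaction was 1.62 ± 0.17 (limma, adjusted p = 1.31e-05). Its partner Itgb7 gave 1.24 ± 0.19. Adgre5, which encodes CD97, went from 12.74, 12.57 and 12.64 to 10.94, 10.78 and 10.74 in WT cells and from 12.76, 12.59 and 12.85 to 12.43, 12.24 and 12.43 without STAT3. It kept a small difference without STAT3 that was not called, and its interaction was 1.46 ± 0.13.

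Of 19 integrins and adhesion receptors, 9 fell in WT cells and none fell without STAT3, against 4.65% and 0.159% of all genes. None of 19 is thus near the share over all genes without STAT3. The interaction was called above 0 for 5, namely Itga4, Adgre5, Itgb7, Cd6 (1.04 ± 0.19) and Itga6 (0.76 ± 0.12), and below 0 for Icam1 (-0.74), which rose in WT cells. The shares over all genes were 1.83% above 0 and 1.25% below. The counts ran from 5 to 6 and from 0 to 2 over the alternatives other than the 2-fold minimum.

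Naive and homing genes, which keep T cells at rest and circulating, were counted next. Of 20 measured, 13 fell and 4 rose in WT cells, and 1 fell without STAT3, against 4.65%, 3.67% and 0.159% of all genes. The interaction was called above 0 for 6 and below 0 for 2, which were Igfbp4 and Sesn3, against 1.83% and 1.25% of all genes. The counts ran from 4 to 9 and from 1 to 3 over the alternatives other than the 2-fold minimum, and the call of Sesn3 was lost under median centring (limma, adjusted p = 0.394). Pdlim4, a PDZ and LIM domain protein, fell most: it went from 9.56, 10.21 and 9.75 to 7.24, 7.37 and 6.90 in WT cells and from 9.69, 9.63 and 9.72 to 9.10, 9.46 and 9.08 without STAT3, an interaction of 2.20 ± 0.42. Klf2, the factor that keeps T cells naive and circulating, fell by 0.62 in WT cells and had a change of 0.01 without STAT3 (interaction 0.62 ± 0.10). Il7r, the receptor chain of IL-7, gave 0.55 ± 0.13, lost under 12 of 27 alternatives (limma, adjusted p up to 0.103). Ccr7 fell by 0.40 in WT cells, but its interaction of 0.28 ± 0.09 was not called. It gained a call under 2 of 27 alternatives (limma, adjusted p down to 0.0327). Cxcr4, another homing receptor, gave 1.16 ± 0.31, lost under 12 of 27 alternatives (limma, adjusted p up to 0.122).

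Genes of T cell identity were lowered by IL-6 in WT cells. Of 11 identity genes 7 fell in WT cells and 2 without STAT3, and Cd5 (1.14 ± 0.15), Thy1 (1.08 ± 0.27) and Cd28 (0.82 ± 0.16) had an interaction called above 0. Over all genes, 4.65% fell in WT cells, 0.159% fell without STAT3 and 1.83% had an interaction called above 0. Cd5, which dampens T cell receptor signals, was at 12.44, 12.49 and 12.65 in WT medium and 10.66, 11.03 and 10.98 with IL-6. Without STAT3 it was at 12.51, 12.51 and 12.48 in medium and at 12.04, 11.94 and 12.02 with IL-6, a smaller fall that itself passed the test. The chains Cd3e and Cd3d gave 0.02 and 0.05 and were not called. The summed signal of the 11 genes was 109300 to 115400 in WT medium, 80180 to 81660 with IL-6, 98770 to 105800 in STAT3-deficient medium and 85450 to 96130 with IL-6. The call of Thy1 was lost under 11 of 27 alternatives (limma, adjusted p up to 0.103).

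Gata3, the master factor of Th2 cells, was at 9.55, 9.72 and 9.80 in WT medium and 8.68, 8.72 and 8.60 with IL-6. In STAT3-deficient cells it was at 8.79, 8.92 and 9.61 in medium and 9.71, 9.10 and 9.59 with IL-6. The fall was seen in WT arrays, and the STAT3-deficient groups overlapped. The interaction was 1.39 ± 0.27 (limma, adjusted p = 0.00472), although Gata3 started lower by 0.59 without STAT3. Epas1, which encodes HIF-2 alpha, fell by 1.88 in WT cells and had a change of -0.30 without STAT3 (interaction 1.59 ± 0.28), opposite in sign to its relative Hif1a. Tbx21, the master factor of Th1 cells, rose 1.60 without STAT3 and had a change of 0.56 in WT cells, and its interaction of 1.04 ± 0.39 was not called (limma, adjusted p = 0.212).

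Single markers of other cells were among the called genes. Ighm fell in WT cells by 1.01 and had a change of 0.10 without STAT3, an interaction of 1.11 ± 0.25, and the call was lost when all its probe sets were averaged (limma, adjusted p = 0.702). It was the only one of 14 B cell markers called. Fcgr3 was the only one of 17 myeloid markers called, at 1.67 ± 0.43. Klrd1 and Ccl5, expressed in NK and memory T cells, gave 1.19 ± 0.22 and 1.57 ± 0.38. Of 9 CD8 T and NK cell markers 2 were called above 0 and Gzma was called below 0, at the value given above. The calls of Fcgr3 and Ccl5 were lost under 13 and 9 of 27 alternatives (limma, adjusted p up to 0.111 and 0.118). The part of such cells in these values was not tested.

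Opposite changes were called in 3 genes. This count was 0 without STAT3-deficient IL-6 replicate 1 and with no variance trend, and ran from 0 to 3 when 1 array was left out. The interactions of the 3 genes were called under all 27 alternatives. Slco3a1, an organic anion transporter, went from 9.0, 9.09 and 8.86 to 8.40, 8.10 and 7.63 in WT cells and from 8.22, 8.61 and 9.11 to 10.23, 9.17 and 9.78 without STAT3. Neither pair of groups overlapped, and the interaction was 2.02 ± 0.37. Trim25, which activates the RNA sensor RIG-I, fell by 0.62 and rose by 0.65 (1.27 ± 0.21). Cd9, a tetraspanin, fell by 0.66 and rose by 0.56 (1.22 ± 0.19), from a level that was lower by 0.91 without STAT3 in medium.

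**Figure D4:**
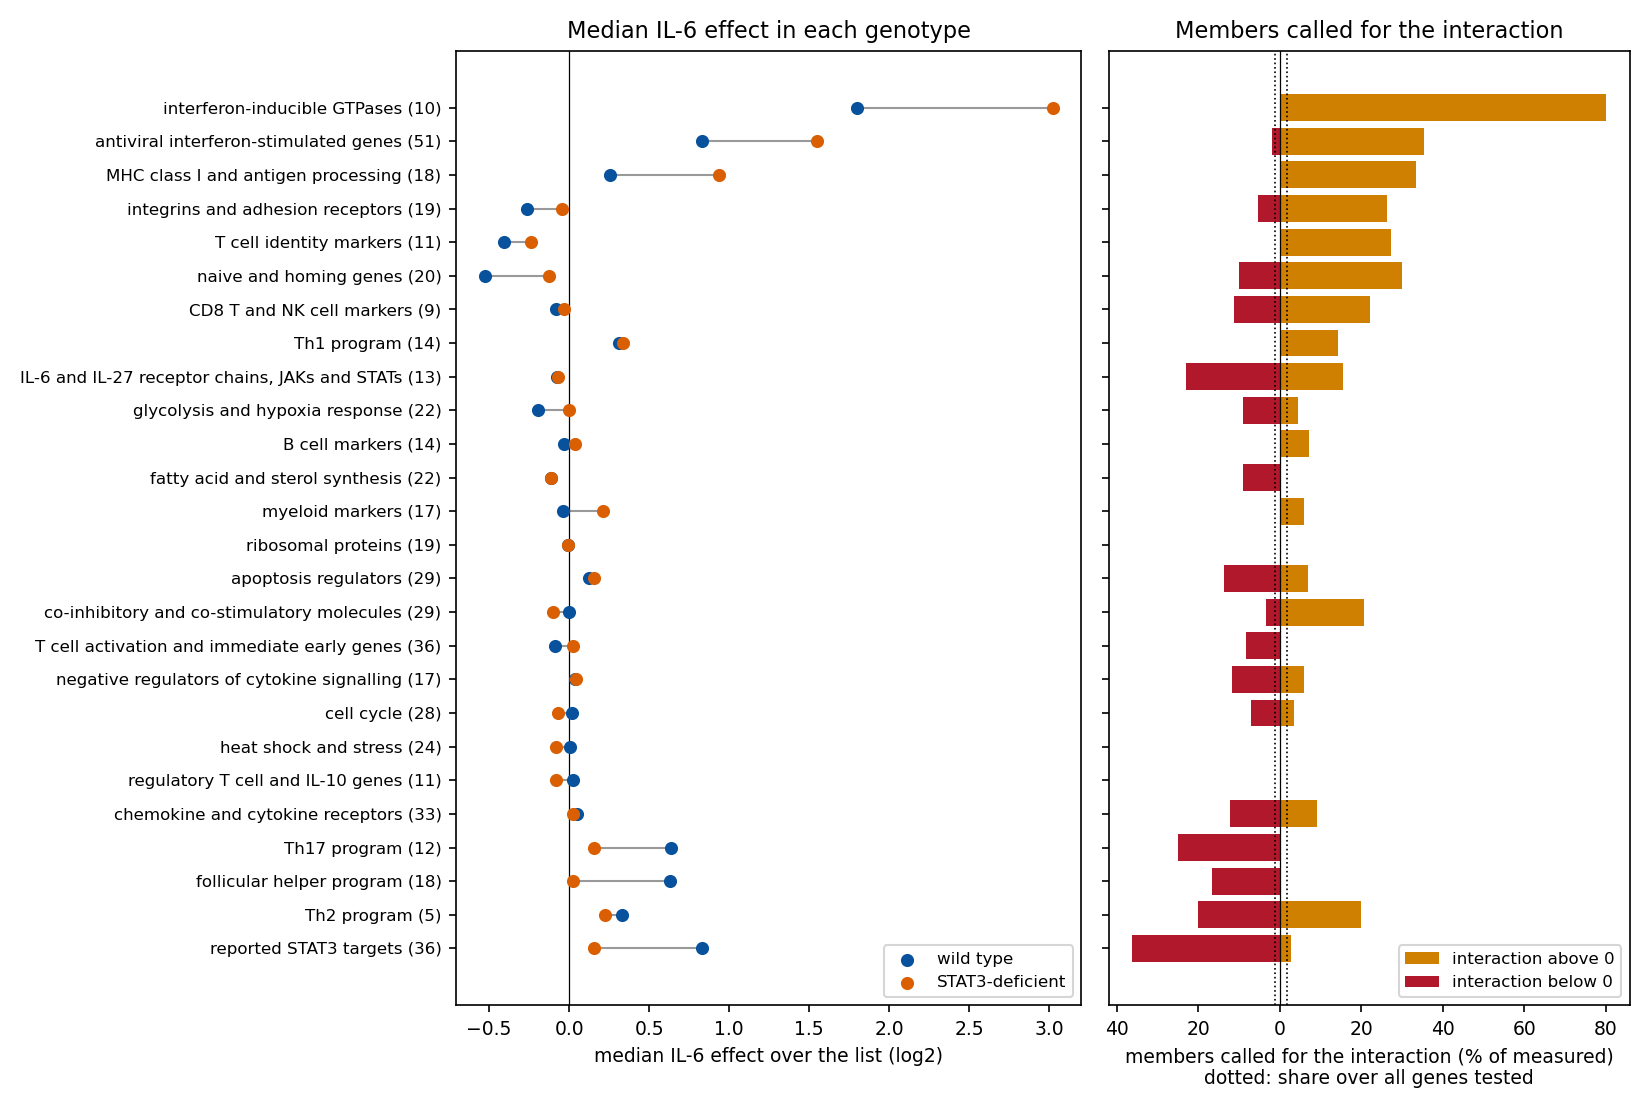
Left, for lists with at least 5 measured genes, the median effect of IL-6 over each gene list (x axis, log2) in WT and STAT3-deficient cells, with the number of measured genes in brackets; right, the percent of measured members with an interaction called above 0 (to the right) or below 0 (to the left), with the share over all genes dotted. The 10 interferon-inducible GTPases lie at the top with 8 called above 0, and the 36 reported STAT3 targets lie at the bottom with 13 called below 0.

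Other processes showed few or no interactions. None of 19 ribosomal protein genes, 24 heat shock genes, 11 regulatory T cell and IL-10 genes and 3 red blood cell markers was called, and 5 of these 57 genes had an unadjusted p under 0.05 (limma). Of 36 activation and immediate early genes 3 were called below 0 and none above, and of 22 glycolysis and hypoxia genes 1 was called above and 2 below. Over all genes 1.83% were called above 0 and 1.25% below. Because the 369 genes were found at a median SE of 0.262, small differences could be missed. In data simulated for this comparison, 10.6% of 1.5-fold, 46.7% of 2-fold and 83.3% of 4-fold interactions were called. The simulated noise was independent between genes, without differences of scale between arrays.

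Levels in medium and with IL-6 were also set between the genotypes. Of the 146 genes with a lost or reduced rise, 30 stood higher and 23 lower without STAT3 in medium, and with IL-6 135 were lower and none higher. Of the 159 with a lost or reduced fall, 23 were higher and 38 lower in medium, and 133 were higher with IL-6. Of the 55 with a gained or increased rise, 14 were higher and 5 lower in medium, and 53 were higher with IL-6. The background shares were 13.8% higher and 12.9% lower in medium, and 12.8% higher and 10.9% lower with IL-6. The arrays of both conditions also entered the interaction, and nothing is read from the counts in medium or with IL-6.

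IL-6 also raised 112 genes in both genotypes, 43 of them in the interferon lists, which hold 79 of the genes tested. For 77 of the 112 no interaction was called, for 27 the rise was larger without STAT3 and for 8 it was smaller. Of the 146 genes with a lost or reduced rise, 8 still rose without STAT3, Socs3 and Stat3 among them. In 108 (74%) the change without STAT3 was under 25% of the WT change, as it was in 112 (70.4%) of the 159 genes with a lost or reduced fall.

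IL-27, which also signals through gp130, gave a comparison in which the medium arrays cancel: the difference between genotypes under IL-6 minus that under IL-27. This value was called above 0 for 70 genes (0.585%) and below 0 for 78 (0.652%). For the interaction with IL-27 itself, only Elovl6 and Xaf1 (0.0167%) were called. The interactions with the 2 cytokines share their medium arrays and are given side by side, not compared by correlation. In the 146 genes with a lost or reduced rise the median interaction was -1.08 with IL-6 and -0.274 with IL-27, and 66 of them were called below 0 in the difference. The 159 genes with a lost or reduced fall had 0.884 and 0.252, with 42 called above 0. The 55 with a gained or increased rise had 1.11 and 0.371, with 22 called above 0. These genes were chosen by their interaction with IL-6, which favours a larger value with IL-6 than with IL-27, and nothing is read from these medians and counts.

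Values of single genes are given side by side. Socs3 had interactions of -3.41 with IL-6 and -0.91 with IL-27, and the difference was -2.50. For Elovl6 they were -3.59 and -1.72. Map3k8 had the largest difference below 0, -3.00, from -2.29 with IL-6 and 0.71 with IL-27. Cd274 had 2.43 and 0.25, a difference of 2.18, and Stat3 had -0.87 and 0.20. Irgm1 had the largest difference above 0, 2.40, from 1.43 with IL-6 and -0.97 with IL-27, and Iigp1 and Igtp had 2.28 and 1.96. Gata3 and Batf, with differences of 0.44 and -0.85, stand for genes whose interactions had the same sign with both cytokines. Of these 2, the difference passed the test for Batf.

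**Figure D5:**
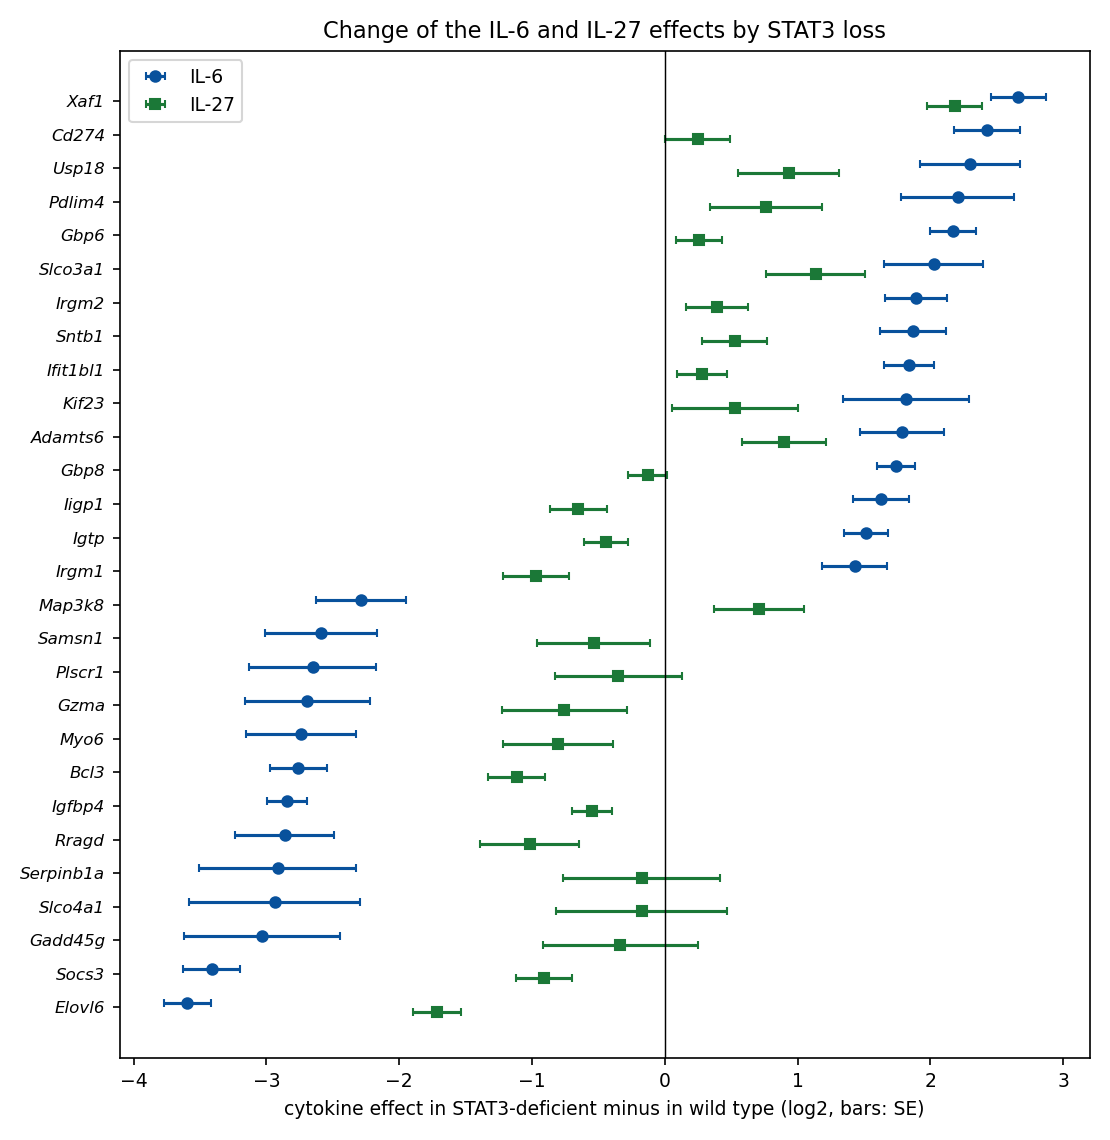
The interaction of genotype with IL-6 (circles) and with IL-27 (squares) for 28 genes, those with the largest interactions or the largest differences between the cytokines (x axis, log2, STAT3-deficient minus WT effect; bars show the SE). The genes were chosen by the IL-6 value or by the difference, which favours an IL-27 value nearer to 0, as for Socs3 at -3.41 and -0.91 and Cd274 at 2.43 and 0.25, whereas the values of Map3k8, Irgm1, Iigp1, Igtp and Gbp8 lie on opposite sides of 0.

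Probe sets that were not read for a gene gave a check within the same arrays. The called genes had 425 such probe sets in 225 genes, and 397 of them had the sign of the probe set that was read. They share RNA and arrays with it and are not replicates. Of the 100 genes named by rule, 85 were called. Leaving aside the 2-fold minimum, 54 of these were called in every alternative in which the gene was tested. Plscr1, tested in 24 of the 27, is among the 54.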

How the data were processed

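Total RNA was read on Affymetrix 430 2.0 mouse arrays. The authors deposited a linear intensity per probe set, made with GCOS per the submitters' processing notes; neither its version nor its algorithm is given in the sources used here. On every array the mean after trimming 2% at each end was 500, and for arrays only their number limits the stated precision.

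The table held 45101 probe sets. Of these, 64 controls were left out, 34945 had 1 gene symbol, 932 had several and 9160 had none. Values were taken as log2(intensity + 32) and quantile normalised (limma 3.58.1, R 4.3.3). Probe sets above the median of their own array on at least 3 arrays were kept (26860), and each gene was read from the one with the highest mean, which gave 11971 genes. A model with a mean per group was fitted to all 18 arrays (12 residual and 6.25 prior degrees of freedom, variance trend). Tests were two-sided, adjusted by Benjamini-Hochberg over all genes within each of 9 comparisons, and called at an adjusted p under 0.05. No array was identical to another. Checked on simulated data with 200 changed genes in 10 runs, 3.62% of the calls were false. The simulation drew noise independently for each gene and added no differences of scale between arrays. Errors from the scaling are therefore not in the 3.62%.

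Members, lists and comparisons were chosen with earlier results of these data known. Named genes are the 12 with the largest called interactions in each direction, 42 measured of 48 fixed genes, up to 4 called members of each of 27 lists, the genes with opposite calls, up to 4 in each direction for IL-6 against IL-27, and all Stat3 probe sets; Gbp3, Gbp7, Ifi47, Icam1, Jak1, Cd3e, Cd3d, Cd3g, Cd4, Lat, H2-K1, H2-D1 and B2m were chosen after their values were seen, as members of the lists. Groups follow the labels. Promoters are those of RefSeq in GRCm38.p6, matched by symbol. Alternatives were other scalings, added constants, filters, probe set rules and variance models, only the 12 arrays, a 2-fold minimum, a replicate block, a marker covariate and leaving out arrays.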

Additional observations from a re-analysis of the deposited data

Results flagged for a closer look

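The effect of IL-6 differed between the genotypes, by the interaction test, for 219 genes called above 0 and 150 below 0. Within these, Slco3a1, Trim25 and Cd9 were called with opposite signs in WT and STAT3-deficient cells, with interactions of 2.02, 1.27 and 1.22. The opposite signs rest on single-genotype calls: 0 to 3 genes had them when 1 array was left out, 0 without STAT3-deficient IL-6 replicate 1, and 0 with no variance trend.

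The difference between genotypes was itself different under IL-6 and under IL-27 for 70 genes called above 0 and 78 below 0, by a test of that difference. Above 0, the immunity-related GTPases Irgm1, Iigp1 and Igtp had 2.4, 2.28 and 1.96, and Cd274 had 2.18. Below 0, the kinase gene Map3k8 had -3, the transporter gene Slco4a1 had -2.76, the protease inhibitor gene Serpinb1a had -2.74 and Gadd45g had -2.7. The probe set of Serpinb1a passed the filter only through the WT arrays with IL-6, where it was high.

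Probe sets with no gene symbol were outside the comparisons by gene. Of 4666 kept by the filter, 56 (1.2%) had an interaction when all kept probe sets were tested together, against 2.21% of the 26860. They have no name here.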

How the results depend on the processing

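Over 27 alternatives, all called interactions shared with the quantile-normalised result kept their sign, and the total ran from 172 to 635. Arrays centred on their medians gave 73 genes below 0, 5910 for genotype in medium and 56 for IL-6 against IL-27. A 2-fold minimum gave 86 above 0, 86 below 0, 271 for IL-6 in WT cells, 106 for IL-6 without STAT3, 489 for genotype in medium, 519 for genotype with IL-6 and 67 for IL-6 against IL-27. The marker covariate left 388 genes for genotype in medium and 422 with IL-6. Array weights gave 252 for IL-6 against IL-27, and 13 in place of 2 for the interaction with IL-27.

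Numbers in the sample names are not explained by the labels. Deviations of same-numbered samples in medium and with IL-6 had correlations of 0.189, 0.0805 and 0.214 in WT cells. In STAT3-deficient cells these were -0.119, 0.135 and 0.184. Samples of unlike number gave -0.17 to -0.00942 in WT and -0.303 to 0.196 in STAT3-deficient cells. The same-numbered values were the higher ones in WT cells, and the ranges overlapped in STAT3-deficient cells. Whether the numbers pair the samples is therefore undecided, and the main fit did not use them. A replicate block by number gave 296 above 0 and 199 below 0, and a replicate block by number within genotype gave 394 and 241, and 306 for IL-6 against IL-27.

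Leaving out 1 array at a time gave 160 to 237 genes above 0, 109 to 158 below 0, 748 to 1046 for IL-6 in WT cells, 179 to 220 for IL-6 without STAT3, 2028 to 3401 for genotype in medium, 1984 to 2970 for genotype with IL-6 and 104 to 161 for IL-6 against IL-27. The fewest genes below 0 came without WT IL-6 replicate 2 and the fewest for genotype in medium without WT medium replicate 1. Without the STAT3-deficient arrays numbered 3, Xaf1 turned to -0.14, read from its other probe set. Of the 85 called genes named by rule, 31 lost their call in at least 1 alternative other than the 2-fold minimum. With 3 arrays a group, interactions under 2-fold are mostly missed.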

Other observations

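Genes of T cell receptor signalling that no list covered were also among the lost or reduced falls. They were chosen after their values were seen, so the set is not tested. Ptpn22, a phosphatase that dampens receptor signals, fell in WT cells by 1.4 and had a change of -0.35 without STAT3 (interaction 1.05 ± 0.20). Ubash3a, another negative regulator, fell by 0.94 and had a change of 0.02 (0.97 ± 0.15). The adaptor genes Sit1 and Grap2 had interactions of 1.10 ± 0.23 and 1.07 ± 0.21. Rasgrp2, an exchange factor for Rap1, had 0.95 ± 0.13, and Dgkz, which removes diacylglycerol, had 0.54 ± 0.11. Rasgrp2 did not change significantly without STAT3, whereas Dgkz still fell by 0.34. The calcium channel gene Orai2 had 0.79 ± 0.18 and the kinase gene Matk 1.18 ± 0.27.

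Further genes were raised by IL-6 with STAT3, again chosen after their values were seen. Vmp1, an autophagy gene, rose 1.96 in WT cells and had a change of -0.03 without STAT3 (interaction -1.99 ± 0.15). Flot1, a membrane scaffold gene, rose 2.27 and had a change of -0.14 (-2.40 ± 0.30). The transcriptional repressor genes Etv6 and Mxd1 rose in both genotypes, by 2.30 and 0.70 and by 2.89 and 1.48, with interactions of -1.59 ± 0.15 and -1.41 ± 0.27. On the other side, Pml, the scaffold of nuclear bodies, rose 1.87 without STAT3 and had a change of 0.32 in WT cells (1.56 ± 0.23). Nampt, an enzyme of NAD salvage, rose 1.36 and had a change of 0.20 (1.16 ± 0.24).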
